A study of Mus musculus with 76 samples.

Results

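The genes of CTCF and of the cohesin machinery were measured by RNA-seq in the developing diencephalon of mouse embryos, and their promoters were looked up in ChIP-seq peak lists of the same tissue. They were taken from a list of 10 names (Ctcf, Smc1a, Smc3, Rad21, Stag1, Stag2, Nipbl, Wapl, Pds5a and Pds5b), out of 56923 genes in the count files, and all 10 passed the filter on low counts in every comparison. Embryos were either wild type C57BL/6J or homozygous for hs754, a human enhancer sequence that replaces its mouse counterpart on chromosome 13, where none of the 10 genes lies. Stages were E11.5 and E17.5, with 4 RNA replicates for each genotype and stage, and ChIP gave 2 lists at the early and 3 at the late stage per genotype for H3K27ac, H3K4me3 and H3K27me3, and 3 lists per genotype for CTCF at E17.5. A replicate was a pool of 6 embryos at E11.5 or of 3 embryos at E17.5, all from 1 litter. Stage and pool size therefore cannot be told apart, the sex of the pooled embryos was not given, and p-values measure the spread between pools. Humanized embryos came from an edited line that had been backcrossed to C57BL/6J, and the genotypes came from separate homozygous crosses, so genotype and litter cannot be told apart.

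Cohesin is a ring of Smc1a, Smc3 and Rad21 that binds 1 of the STAG proteins, holds sister chromatids together after replication and extrudes loops of chromatin. Nipbl loads the ring and drives extrusion, Wapl opens it again, and the Pds5 proteins bind it next to Rad21 and act with Wapl in release and with the acetylation of Smc3 in cohesion. CTCF is a zinc finger protein that binds a long motif with a fixed direction and stops extruding cohesin there, so that loop ends and domain borders form at its sites.

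The promoters shown first are that of Ctcf, which fell between stages in the wild type mouse, and those of the called genes with the largest increases (Stag2 and Pds5b). Positions are in mm39 (GRCm39), each sequence is written 5′ to 3′ on the strand of the gene from 250 bases before the start of its main transcript, and capitals mark CCAAT (or ATTGG, its other strand). The stretches are chr8:106362672-106362951 (plus strand) for Ctcf, chrX:41237944-41238175 (plus strand) for Stag2 and chr5:150596954-150597233 (plus strand) for Pds5b. None includes more than 30 bases of annotated exon.
Ctcf promoter: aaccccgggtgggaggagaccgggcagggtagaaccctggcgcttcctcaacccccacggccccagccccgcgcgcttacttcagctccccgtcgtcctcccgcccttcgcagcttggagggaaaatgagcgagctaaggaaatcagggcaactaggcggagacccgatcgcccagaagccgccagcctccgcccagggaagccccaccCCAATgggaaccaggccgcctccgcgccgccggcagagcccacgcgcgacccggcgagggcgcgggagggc
Stag2 promoter: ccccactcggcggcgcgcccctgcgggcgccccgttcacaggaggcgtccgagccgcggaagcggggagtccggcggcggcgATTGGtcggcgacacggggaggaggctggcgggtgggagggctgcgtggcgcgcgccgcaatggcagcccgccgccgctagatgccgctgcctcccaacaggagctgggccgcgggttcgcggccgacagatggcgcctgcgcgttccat
Pds5b promoter: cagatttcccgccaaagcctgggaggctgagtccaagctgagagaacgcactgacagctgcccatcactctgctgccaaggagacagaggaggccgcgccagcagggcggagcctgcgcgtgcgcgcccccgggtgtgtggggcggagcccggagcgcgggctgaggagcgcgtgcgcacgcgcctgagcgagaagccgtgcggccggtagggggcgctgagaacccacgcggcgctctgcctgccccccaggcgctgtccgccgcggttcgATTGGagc

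All 10 promoters were rich in CpG. Over the 300 bases around the start (250 before it and 50 from it on), the 10 genes held 19 (Wapl) to 43 CpGs (Stag1 and Stag2), against a median of 11 over 21757 protein-coding promoters. CCAAT was found on either strand in 6 of 10 (Ctcf, Smc1a, Rad21, Stag1, Stag2 and Pds5b) and in 39.9% of all promoters. The GC box GGGCGG was in 8 of 10 (42.5% of all promoters), the E2F element TTCCCGC in Smc1a, Stag1, Pds5a and Pds5b (5.59%), and the ETS element CCGGAA in Smc1a, Rad21 and Nipbl (16.9%). AAGATGGC, a YY1 core, and TTTGAA, a cell cycle element known as CHR, were each found in Rad21 only among the 10, and in 2.47% and 17.1% of all promoters. The CRE TGACGTCA and the NRF1 core GCATGCGC were in 0 of 10, and in 2.45% and 3.69% of all promoters. These are matches of letters in a fixed window on both strands, and TTCCCGC and GGGCGG can overlap other GC-rich letters.

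CTCF was called at the promoters of its own gene and of most cohesin genes, and stretches near those summits that best match its consensus are shown. The 12-letter CTCF core consensus was searched on both strands in the 201 bases around the highest wild type summit. Each line gives 30 bases on the strand of the gene, with the best match in capitals. The matches shown begin up to 71 bases from the summit, and binding of CTCF to these letters was not tested.
Stag1 site at chr9:100525617-100525646, 12 letters: gcagcgcggCCAGCAGAGGGCggtcgggac
Stag1 other site at chr9:100525675-100525704, 12 letters: tggaaaatgCCACCAGATGGCgggttagga
Smc3 site at chr19:53588331-53588360, 11 letters: ggctcggaaCCAGCAGGAGGCgctctgagc
Pds5b site at chr5:150597149-150597178, 11 letters: gccgtgcggCCGGTAGGGGGCgctgagaac
Ctcf site at chr8:106363382-106363411, 10 letters: cgcgggccgCCTCTAGGTGTCacgatgggg
Stag2 site at chrX:41238091-41238120, 10 letters: agcccgccgCCGCTAGATGCCgctgcctcc
Stag2 other site at chrX:41238140-41238169, 10 letters: ggttcgcggCCGACAGATGGCgcctgcgcg
Pds5a site at chr5:65854257-65854286, 10 letters: cgatagaggCCGGTAGAGGACtgtgagaga

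The matches of Stag1 and Pds5a lie in an untranslated exon of the main transcript, that of Ctcf in an intron of it (an untranslated exon of other transcripts), and those of Smc3, Stag2 and Pds5b upstream of the main start. The best matches at Nipbl and Wapl had 9 letters and that at Smc1a had 8. At least 10 letters were matched in 59.0% of the 7313 promoters with a CTCF peak in every wild type list and in 18.7% of 11342 promoters with a peak in none, where the 201 bases around the start were searched. All 12 letters were matched in 5.06% and 0.0441% of them. Of the 9 members with a CTCF peak in every list, 7 had at least 10 letters, of which 6 are shown, and 1 (Stag1) had 12.

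Libraries held 16414369 to 24272569 counts on genes, and the 10 genes had 358 (Stag2) to 11037 counts (Rad21) in a library. Expression is given as CPM, the counts of a gene relative to all counts on genes after TMM scaling. Levels of different genes are compared only as TPM, which also divides by the length of the merged exons of all transcripts of a gene. In every group Rad21, the cleavable subunit that closes the ring, was the highest of the 10, at 510.0 ± 88.7 TPM in the E11.5 wild type and 310.3 ± 66.9 in the E17.5 wild type (mean ± SD, n = 4). Its libraries did not overlap those of the next gene, Ctcf, at 204 ± 24.4 and 115 ± 21.4 TPM. At E11.5 the libraries of Ctcf in turn lay above those of Smc1a, at 73.8 ± 15.5 TPM in the wild type. Below Ctcf every neighbour in the order overlapped the next, and at E17.5 Ctcf itself overlapped Smc3, at 104 ± 32.6 TPM in the wild type. The lowest gene was Stag2 at E11.5, with 18.4 ± 7.34 TPM in the wild type and 14.5 ± 6.87 in the humanized mouse, and Pds5a at E17.5, with 22.2 ± 10.2 and 27.9 ± 4.98. The merged exons of Pds5a hold 21820 bases, against 9108 in its main transcript, and its unstranded counts are uncertain. Its place in the order therefore depends on the length and the counts used.

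**Figure D1:**
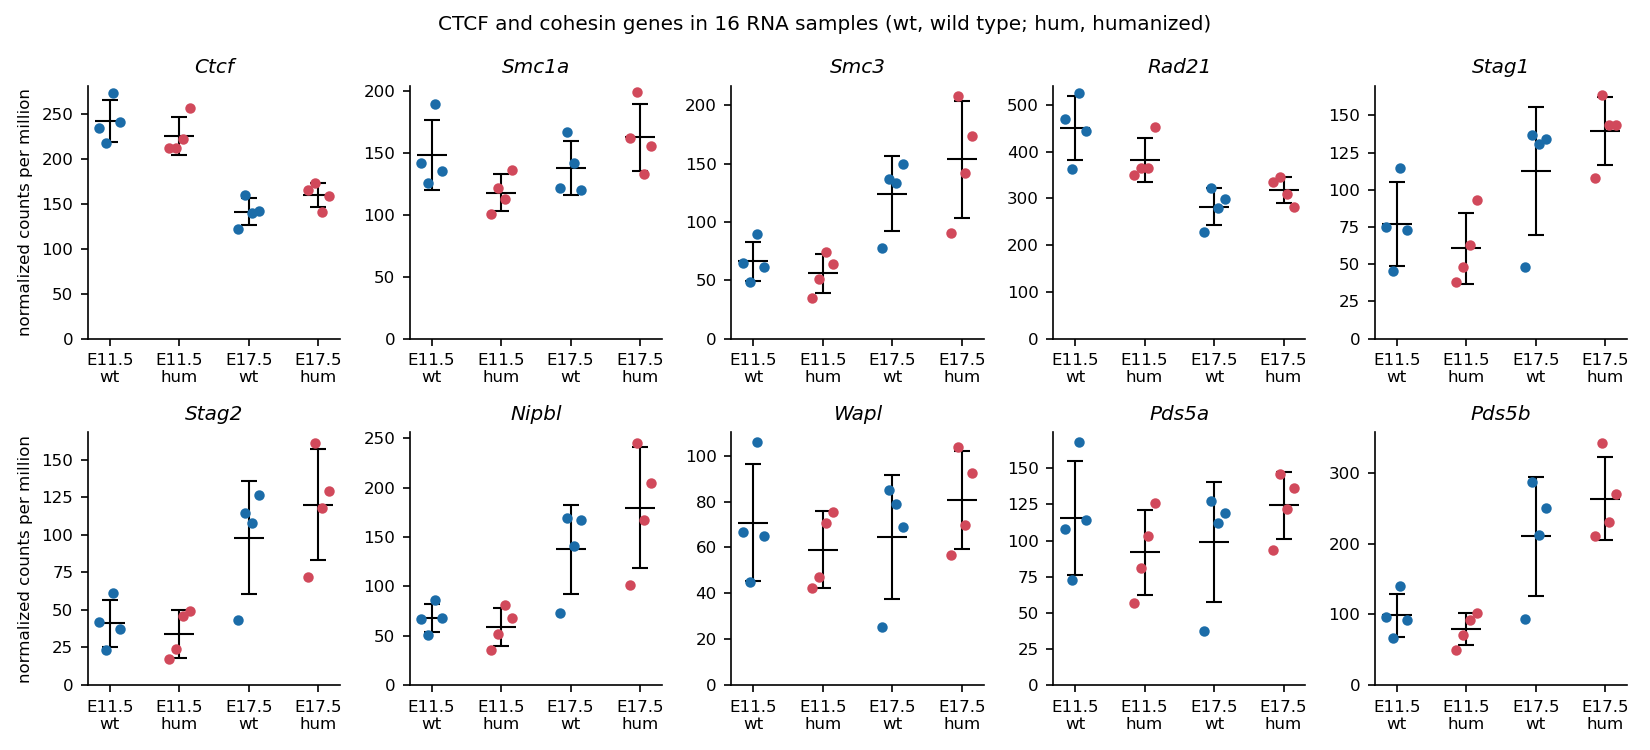
Normalized CPM (vertical axis, from 0, with its own scale for each gene) of the 10 genes in the 16 RNA samples; points are pools, blue for wild type and red for humanized, and bars give the mean and SD of 4 pools. Ctcf and Rad21 sit lower at E17.5 in both genotypes, and the lowest E17.5 wild type point of every gene except Smc1a is replicate 1.

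Between E11.5 and E17.5 the 10 genes did not move as a unit. In the wild type mouse Stag2, Pds5b, Nipbl and Smc3 rose, Ctcf and Rad21 fell, and Stag1, Smc1a, Wapl and Pds5a were not called (edgeR's quasi-likelihood test, adjusted p under 0.05). These 4 of 10 called higher stand against 29.0% of the 18583 genes tested, and the 2 of 10 called lower against 26.7%. In the humanized mouse, whose libraries the wild type comparison did not use, 6 rose (Stag2, Pds5b, Nipbl, Smc3, Stag1 and Smc1a) against 38.2% of 18781 genes, and 1 fell (Ctcf) against 39.5%. With a change of at least 2-fold as well, the counts were 3 of 10 (Stag2, Pds5b and Nipbl) against 40.7% of genes in the wild type, and 5 of 10 (those and Smc3 and Stag1) against 52.0% in the humanized mouse. The median log2 fold change was 0.21 and 0.82 for the 10 genes and -0.01 and -0.04 for all genes tested. Libraries of the stages did not overlap for 2 of the 10 genes in the wild type (Ctcf and Rad21, lower) and for 7 in the humanized mouse (those and Smc3, Stag1, Stag2, Nipbl and Pds5b, higher), against 50.3% and 71.8% of the genes tested. In bulk tissue, fewer cells of a type and less RNA per cell cannot be told apart.

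GC content moved with these values. The exons of 6 of the 10 genes, 39.8% GC in Stag1, 40.3% in Nipbl, 40.6% in Pds5a, 41.2% in Stag2, 41.5% in Pds5b and 41.6% in Smc3, lay between percentiles 4.75 and 11.01 of 14827 expressed protein-coding genes. Ctcf, at 50.8%, lay at percentile 60.5. Among all tested genes split into 20 bins by exonic GC, the median log2 fold change between stages was 1.08 in the lowest bin and -0.01 in the highest in the wild type, and 1.85 and -0.54 in the humanized mouse. E17.5 wild type replicate 1 stood apart, since low-GC minus high-GC genes deviated from the group mean by -1.93 on the log2 scale there and by -0.72 to 0.73 in the other 15 libraries. All 10 genes were below the mean of their group in that library, with a median deviation of -0.95. In 4 of 4 groups, the library lowest for low-GC genes was also the lowest for the 10 genes, and the same held in 4 of 4 for the highest. What part GC content had in the stage differences was not tested. Values were therefore also computed without replicate 1. They were also computed with an offset for each of 20 bins of exonic GC content in each library, an alternative chosen after seeing the data. These offsets also take out any median difference between the groups that genes of like GC content share. Values with them are therefore relative to such genes and are not corrected changes of expression.

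**Figure D2:**
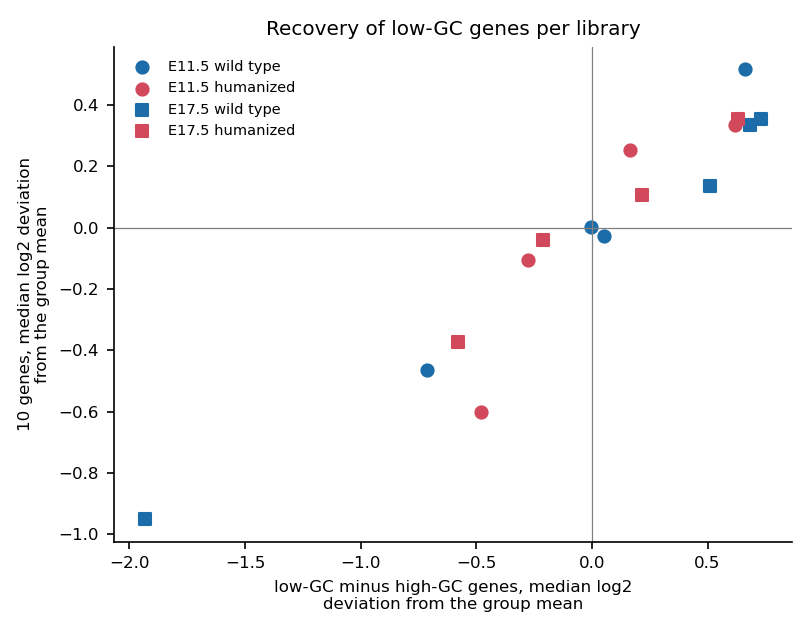
Each point is 1 of the 16 RNA libraries; the horizontal axis is the median log2 deviation of low-GC minus high-GC genes from the mean of the group, and the vertical axis is the median log2 deviation of the 10 genes. The point at the far left (-1.93, -0.95) is E17.5 wild type replicate 1.

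Without E17.5 wild type replicate 1, 5 genes were called higher (Stag1 at a log2 fold change of 0.78 was added), 2 lower and 4 at 2-fold or more, and 13994 genes were called in place of 10356. The log2 fold changes were then -0.74 for Ctcf, -0.61 for Rad21, 1.06 for Smc3, 1.49 for Stag2 and 1.21 for Nipbl, all called. With the GC offsets, the wild type comparison called 4 higher (Stag2, Pds5b, Smc3 and Nipbl) and 3 lower (Pds5a, Ctcf and Rad21), and the humanized comparison called the same 4 higher and only Pds5a lower. No gene then reached 2-fold in either genotype. The increases of Stag2, Pds5b, Nipbl and Smc3 were called under both alternatives in both genotypes where they were run, while the size of the change was smaller with the offsets in every case.

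Ctcf was measured at 235, 218, 274 and 242 CPM in the E11.5 wild type pools and at 123, 159.8, 140.5 and 142 at E17.5. The stages did not overlap, and the log2 fold change was -0.79 (SE 0.16, edgeR adjusted p = 0.00203), a level 0.578 times that at E11.5. Humanized pools had 213, 212, 222 and 257 CPM at E11.5, followed by 165, 174, 142 and 159 at E17.5. Here too every E17.5 pool lay below every E11.5 pool, and the log2 fold change was -0.51 (SE 0.12, edgeR adjusted p = 0.00166). The GC offsets left the call in the wild type (-0.58, edgeR adjusted p = 0.0175) and took it away in the humanized mouse (-0.13, edgeR adjusted p = 0.364).

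The ring subunits went separate ways. Rad21, whose cleavage by separase frees sister chromatids, had 471, 363, 526 and 444 CPM in E11.5 wild type pools and 229, 322, 280.4 and 299.7 at E17.5. It fell by 0.69 on the log2 scale (SE 0.18, edgeR adjusted p = 0.00911), with no overlap between stages. In humanized pools it had 349, 366, 365 and 452 CPM at E11.5, followed by 334, 345, 310.1 and 282 at E17.5, and the log2 fold change of -0.28 was not called (SE 0.13, edgeR adjusted p = 0.0572), although the pools did not overlap. The humanized value was called without a filter on low counts (-0.34, edgeR adjusted p = 0.0329), without E11.5 humanized replicate 1 (-0.35, edgeR adjusted p = 0.0420) and without E17.5 humanized replicate 2 (-0.32, edgeR adjusted p = 0.0439). With the GC offsets it was -0.50 in the wild type, still called (edgeR adjusted p = 0.00547), and -0.22 in the humanized mouse, not called (edgeR adjusted p = 0.0754).

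Smc3, the ring subunit whose acetylation makes cohesin stable on chromatin, had 64.8, 48.7, 89.5 and 61.2 CPM at E11.5, followed by 77.5, 137, 133 and 149 at E17.5 in wild type pools. E17.5 replicate 1 reached into the range of E11.5 and the other 3 pools lay above it. The log2 fold change was 0.90 (SE 0.26, edgeR adjusted p = 0.0129). Humanized pools held 34.9, 51.2, 73.8 and 63.7 CPM at E11.5, followed by 90.7, 208, 142 and 174 at E17.5, without overlap, with a log2 fold change of 1.44 (SE 0.27, edgeR adjusted p = 0.000324). With the GC offsets the values were 0.59 and 0.53, both called (edgeR adjusted p = 0.00119 and 0.0128).

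Smc1a, the partner of Smc3 in the ring and a gene of the X chromosome, differed from both. Its wild type pools had 141, 126, 189 and 135 CPM at E11.5, followed by 122, 167, 141 and 120.1 at E17.5, and the log2 fold change of -0.12 had an interval of -0.55 to 0.31 (-0.07 without E17.5 replicate 1 and -0.019 with the GC offsets, neither called). Humanized pools had 100.5, 121, 113 and 136 CPM and then 161, 199, 133 and 156, which overlap in 1 pool of each stage. That difference was called at a log2 fold change of 0.45 (SE 0.15, edgeR adjusted p = 0.0146), but not without E11.5 humanized replicate 1 (0.36, edgeR adjusted p = 0.0567) or replicate 3 (0.40, edgeR adjusted p = 0.0501), nor with the GC offsets (0.19, edgeR adjusted p = 0.139).

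Stag2 and Stag1 encode alternative subunits that bind Rad21 and direct the ring to different sites. Stag2 had 41.7, 23.4, 61.2 and 37.6 CPM at E11.5, followed by 43.5, 115, 108 and 127 at E17.5 in wild type pools. The E17.5 pools other than replicate 1 were all above 100, and the log2 fold change of 1.24 was the largest of the 10 (SE 0.37, edgeR adjusted p = 0.0143). Humanized pools had 17.4, 23.8, 46.1 and 49.2 CPM and then 71.9, 161, 118 and 129, a log2 fold change of 1.79 (SE 0.33, edgeR adjusted p = 0.000340) with no overlap. The GC offsets gave 0.90 and 0.93, both called (edgeR adjusted p = 0.000327 and 0.00102).

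Stag1 had 74.6, 45.4, 115 and 73.2 CPM at E11.5, followed by 48.2, 137, 131 and 134 at E17.5 in the wild type. Replicate 1 of E17.5 lay among the E11.5 pools, and the log2 fold change of 0.53 was not called (SE 0.36, edgeR adjusted p = 0.232). Without that pool it was 0.78 and called (edgeR adjusted p = 0.00738). In the humanized mouse, 37.8, 48.3, 63.1 and 93.2 CPM were followed by 108, 163, 144 and 144, without overlap, and the log2 fold change of 1.18 was called (SE 0.25, edgeR adjusted p = 0.000874). It was 0.07 with the GC offsets (edgeR adjusted p = 0.570), and -0.04 in the wild type (edgeR adjusted p = 0.819).

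Nipbl, the loader, and Wapl, the release factor, have opposite roles and differed in their course. Nipbl had 66.5, 50.7, 86.4 and 67.8 CPM in E11.5 wild type pools and 72.7, 169, 141 and 167 at E17.5. Replicate 1 of E17.5 again lay within the E11.5 range, and the log2 fold change was 1.003 (SE 0.28, edgeR adjusted p = 0.0113). In the humanized mouse it had 35.5, 51.3, 80.9 and 67.5 CPM and then 102, 245, 168 and 204, a log2 fold change of 1.60 (SE 0.29, edgeR adjusted p = 0.000256). With the GC offsets these were 0.44 and 0.42, both called (edgeR adjusted p = 0.00384 and 0.0355).

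Wapl had 66.8, 45.1, 106 and 65.1 CPM in E11.5 wild type pools and 25.1, 85.1, 79.0 and 69.1 at E17.5. The stages overlapped, and the log2 fold change of -0.15 had an interval of -0.97 to 0.68. Its sign turned without E11.5 wild type replicate 3 (0.10) or without E17.5 wild type replicate 1 (0.12). Humanized pools had 42.2, 46.9, 70.8 and 75.7 CPM and then 56.9, 104, 69.9 and 92.6, and the log2 fold change of 0.44 was not called (interval -0.06 to 0.94, edgeR adjusted p = 0.0997). It was called without E11.5 humanized replicate 4 (0.58, edgeR adjusted p = 0.0328) and without E17.5 humanized replicate 1 (0.57, edgeR adjusted p = 0.0374). The same held with DESeq2 size factors (0.52, edgeR adjusted p = 0.0489) and with the replicate number as a block (0.45, edgeR adjusted p = 0.0399). The GC offsets gave -0.33 in the wild type and 0.18 in the humanized mouse, neither called (edgeR adjusted p = 0.208 and 0.356).

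Pds5b and Pds5a are paralogs that bind the same face of cohesin. Pds5b had 96.6, 65.9, 139.8 and 91.3 CPM in E11.5 wild type pools and 93.1, 287, 212 and 250.2 at E17.5, where replicate 1 alone lay in the E11.5 range. The log2 fold change was 1.08 (SE 0.34, edgeR adjusted p = 0.0208), and leaving out any of 5 libraries other than E17.5 replicate 1 (E11.5 wild type replicate 1, 2 or 4, or E17.5 replicate 2 or 4) took the call away, with edgeR adjusted p from 0.0515 to 0.0585. Without E17.5 replicate 1 it was 1.32 (edgeR adjusted p = 7.83e-05). Humanized pools had 50.2, 71.4, 92.1 and 102 CPM and then 211, 343, 230.5 and 271, with no overlap and a log2 fold change of 1.72 (SE 0.23, edgeR adjusted p = 2.04e-05). Pds5b was at 0.72 in the wild type and 0.84 in the humanized mouse with the GC offsets, both called (edgeR adjusted p = 0.000754 and 2.88e-05).

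Pds5a had 108, 72.7, 168 and 115 CPM in E11.5 wild type pools and 37.6, 128, 112 and 119 at E17.5, with a log2 fold change of -0.24 that was not called (interval -1.07 to 0.58). Humanized pools had 57.1, 81.1, 103 and 126 CPM and then 93.3, 146, 122 and 136, and the log2 fold change of 0.42 was not called either (interval -0.07 to 0.91). It was called higher without E11.5 humanized replicate 4 (0.60, edgeR adjusted p = 0.0152), with DESeq2 size factors (0.50, edgeR adjusted p = 0.0499) and with the replicate number as a block (0.46, edgeR adjusted p = 0.0158). Under the GC offsets, which set it against genes of like GC content, Pds5a was called lower in both genotypes. The values were -0.84 (edgeR adjusted p = 0.000182) and -0.72 (edgeR adjusted p = 2.66e-05), which turns its direction in the humanized mouse. Pds5a overlaps annotated transcripts of the other strand, so its unstranded counts are uncertain, and the strand column held 113% to 122% of its unstranded count, against 98.5% to 100.1% for the other 9 genes.

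**Figure D3:**
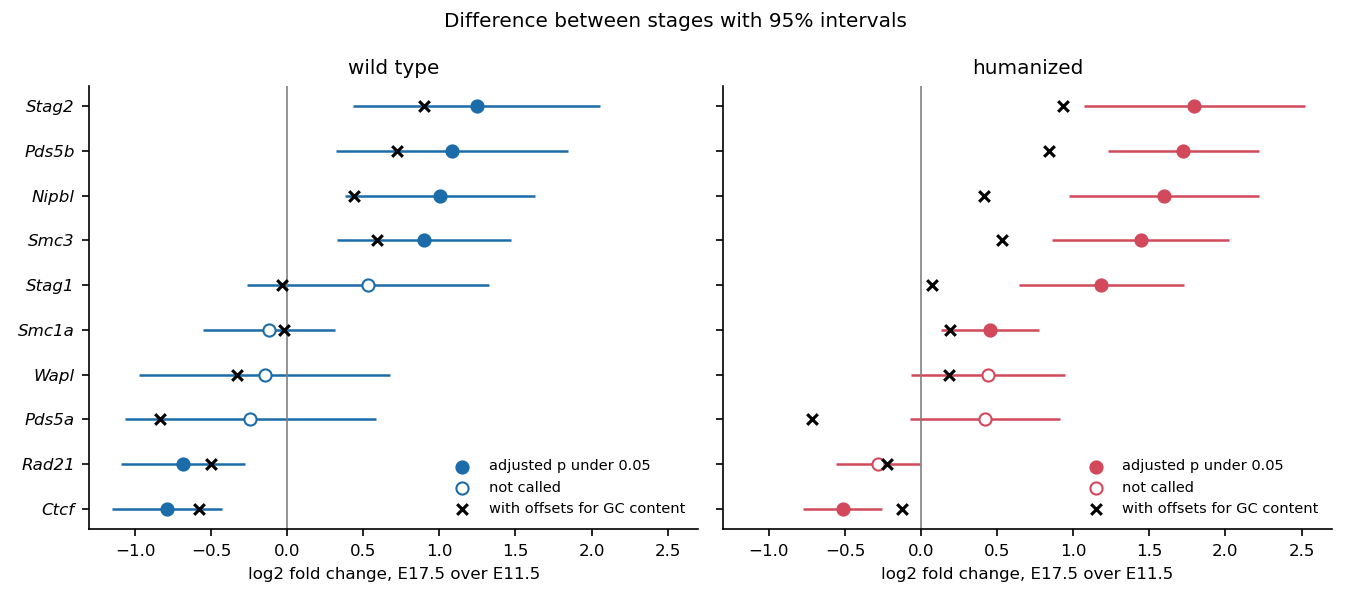
Log2 fold change of E17.5 over E11.5 (horizontal axis, same scale in both panels) of each gene in the wild type and the humanized mouse, with 95% intervals; filled points were called, open points were not, and crosses give the value with offsets for GC content. Stag2 is the highest in both panels (1.24 and 1.79) and Ctcf the lowest (-0.79 and -0.51), and most crosses lie nearer to 0.

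A ratio of a pair of genes within a pool does not depend on how libraries are scaled. Its level does depend on the exon lengths used, here those of merged exons, but its log2 difference between stages does not. Pds5a over Pds5b, as the log2 ratio of counts per kilobase, was -0.77, -0.79, -0.66 and -0.60 in the E11.5 wild type pools and -2.23, -2.10, -1.85 and -2.001 at E17.5, and the stages were far apart. The difference was -1.34 in the wild type and -1.29 in the humanized mouse, from -0.72 ± 0.06 to -2.01 ± 0.15 (SD, n = 4; exact permutation test, two-sided, p = 0.0286 in each, the smallest that 4 against 4 allow, and 0.0381 adjusted over 8 tests). By unstranded counts and merged exon lengths, Pds5a was thus present at 0.614 times the level of Pds5b at E11.5 and at 0.242 times at E17.5 in the wild type. These levels are uncertain, since the strand column held 113% to 122% of the unstranded count of Pds5a.

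Stag2 over Stag1 went from -0.70, -0.81, -0.76 and -0.82 at E11.5 to -0.01, -0.11, -0.13 and 0.06 at E17.5 in the wild type, where the stages did not overlap. On the linear scale Stag2 was at 0.585 and then at 0.967 times the level of Stag1, a log2 difference of 0.72 (exact permutation test, two-sided, p = 0.0286, adjusted 0.0381). Those levels rest on merged exons of 11053 bases for Stag2 and 12197 for Stag1. Their main transcripts have 8241 and 6186 bases, so near equality at E17.5 depends on the length used. In the humanized mouse the ratio was -0.74 ± 0.29 and -0.12 ± 0.24 (SD, n = 4), the stages overlapped, and the difference of 0.62 had p = 0.0571 (exact permutation test, adjusted 0.0653).

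Wapl over Nipbl was 0.91, 0.73, 1.195 and 0.84 at E11.5, followed by -0.63, -0.09, 0.07 and -0.37 at E17.5 in the wild type. With merged exon lengths, release factor transcripts thus stood above loader transcripts in every E11.5 pool and below them in 3 of 4 at E17.5. Which gene stands above near a ratio of 0 depends on the length used. The difference was -1.18 in the wild type and -1.14 in the humanized mouse (exact permutation test, two-sided, p = 0.0286 and adjusted 0.0381 in each). Ctcf over Rad21 had a smaller difference, -0.11 in the wild type (exact permutation test, p = 0.171), where the stages overlapped, and -0.24 in the humanized mouse (p = 0.0286, adjusted 0.0381). These ratios are between genes of unlike exonic GC content, 40.6% and 41.5% for Pds5a and Pds5b, 41.2% and 39.8% for Stag2 and Stag1, 44.4% and 40.3% for Wapl and Nipbl, and 50.8% and 46.4% for Ctcf and Rad21.

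**Figure D4:**
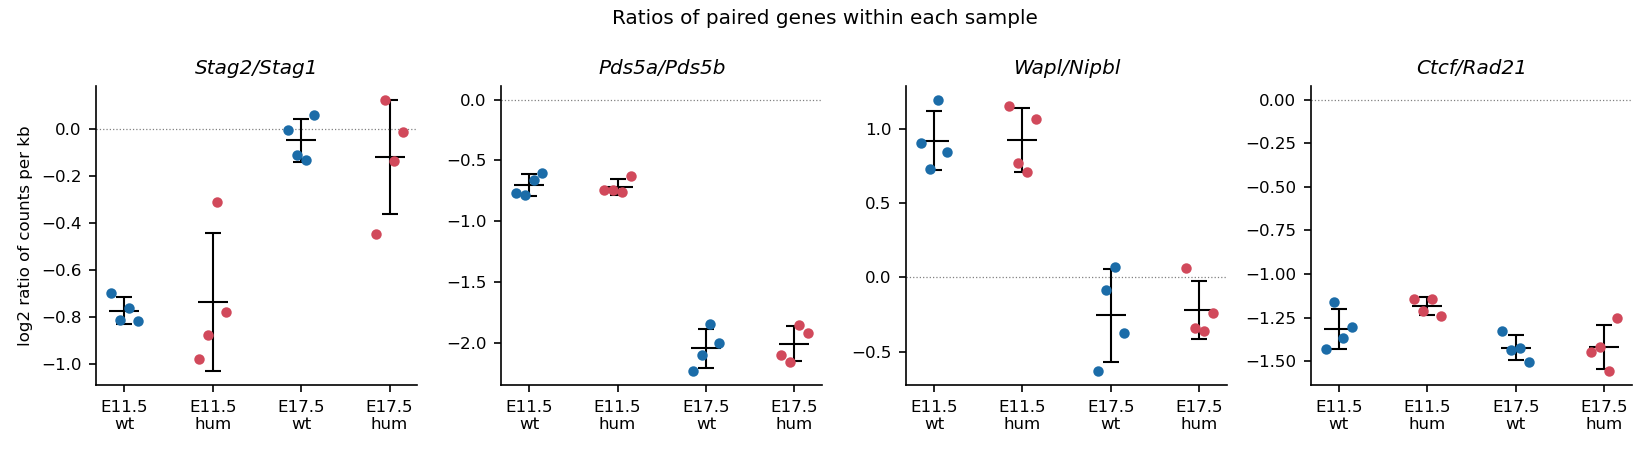
Log2 ratio of counts per kilobase of 4 pairs of genes (vertical axes, each on its own scale) in every pool, blue for wild type and red for humanized, with the mean and SD of 4 pools. Pds5a over Pds5b falls from about the same level in both genotypes (-0.70 and -0.72) to -2.04 and -2.01, with no overlap between the stages.

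Humanized and wild type embryos were compared at each stage to ask whether the replaced enhancer goes with a change in these genes. None of the 10 was called at E11.5 or E17.5, against 0% of 17816 and 0% of 18763 genes tested (edgeR's quasi-likelihood test, with 1058 and 207 genes at an unadjusted p under 0.05). DESeq2 called 2 genes at E11.5 but only 1 at E17.5, and none of the 10. At E11.5 all 10 log2 fold changes of humanized over wild type were below 0, from -0.37 (Stag1) to -0.12 (Ctcf), and the lowest edgeR adjusted p was 0.577. At E17.5 all 10 were above 0, from 0.16 (Rad21) to 0.39 (Nipbl), each with an edgeR adjusted p of 0.808. The widest 95% intervals ran from -1.08 to 0.50 at E11.5 (Stag2) and from -0.44 to 1.08 at E17.5 (Wapl), so that changes of up to about 2-fold lie within them. Groups of the genotypes did not overlap for 0 of the 10 genes at either stage, against 2.50% and 1.21% of the genes tested.

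The interaction of genotype and stage was above 0 for all 10 genes, from 0.28 (Ctcf) to 0.66 (Pds5a), and none was called (edgeR adjusted p from 0.462 to 0.559, against 0% of 20234 genes called and 1610 at an unadjusted p under 0.05). It uses the same libraries as the comparisons at each stage. GC content moved with these signs. In the lowest GC bin the median of all genes was -0.28 at E11.5, followed by 0.32 at E17.5, and in the highest bin it was 0.17 and -0.38. With the GC offsets, Nipbl was at 0.04 at E11.5 and Smc3 at -0.06 at E17.5, so not all 10 kept 1 sign. Their part in the shared signs was not tested.

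Each of the 10 promoters was marked as active at both stages. A peak counted where it overlapped, by at least 1 bp, the 1000 bp on either side of the main start. H3K4me3, a mark of active promoters, was listed at 10 of 10 in every wild type list, against 63.5% of protein-coding promoters at E11.5, followed by 63.6% at E17.5. H3K27ac, a mark of active promoters and enhancers, was likewise at 10 of 10, against 47.3% and 57.0%. Among 14814 promoters of expressed genes these shares were 88.4% and 88.6% for H3K4me3 and 67.4% and 80.9% for H3K27ac. The H3K27ac antibody lot is described in the study's methods as also binding acetylated H2B.

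Rad21, whose RNA fell in the wild type, had H3K27ac fold enrichments of 36.7 and 37.7 in the E11.5 wild type lists and of 28.3, 28.5 and 30.7 at E17.5. Fold enrichments of different lists are not on a common scale, so each list's promoters with a peak were also ranked. The lists differ in length, with 32418 to 37311 H3K27ac peaks at E11.5 but 47132 to 77419 at E17.5, and 10299 and 12409 promoters had a peak in every wild type list, so places are relative to different sets of promoters and do not measure a change in the mark. The promoter of Rad21 stood at the 90.2nd to 97.7th percentile in the 4 E11.5 lists of both genotypes and at the 61.4th to 79.9th in the 6 E17.5 lists, without overlap. Stag2, whose RNA rose, stood at 97.5 to 98.1 in the E11.5 lists and at 89.1 to 95.6 in those of E17.5. Ctcf was at 90.9 to 99.4 and 82.9 to 92.8, which overlap. Over lists of both genotypes, 2 of the 10 genes had a lower place at E17.5 without overlap and 0 a higher one, against 9.66% and 15.8% of 9769 promoters. Over the wild type lists alone these were 3 (Rad21, Stag2 and Nipbl) and 0, against 17.8% and 32.6% of 10100. For H3K4me3, 0 were lower and 0 higher over both genotypes (6.13% and 7.31% of 13566), and 2 (Ctcf and Wapl) were lower and 1 (Stag2) higher over the wild type lists (15.9% and 19.1% of 13619). What part list length had in these places was not tested. This ranking was chosen after seeing the data and carries no test.

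H3K27me3, a mark of Polycomb repression, was listed at Smc1a only. It was in 2 of 2 wild type lists at E11.5, at low fold enrichments of 3.19 and 3.48, against 19.4% of all promoters with a peak in every list. At E17.5 it was in 1 of 3 wild type lists (4.46), so that 0 of 10 genes had it in every list, against 19.1%. In humanized lists it was in 1 of 2 at E11.5 but in 2 of 3 at E17.5. Smc1a and Stag2 are both X-linked, and female embryos carry an inactive X chromosome. The promoter of Stag2 had an H3K27me3 peak in no list of either genotype. Xist, the RNA of the inactive X, ranged from 0.179 to 202 TPM over the E11.5 RNA pools and from 1.54 to 468 over those of E17.5. What part the inactive X had in the peak at Smc1a was not tested.

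CTCF itself was listed in all 3 wild type lists at 9 of 10 promoters, against 33.6% of protein-coding promoters and 46.0% of those of expressed genes. Stag1, at fold enrichments of 61.0, 31.3 and 45.0 in wild type replicates 1, 2 and 3, and Pds5b, at 56.7, 32.5 and 46.5, were the highest in replicates 1 and 3. Stag2 was at 44.4, 32.8 and 42.2 and was the highest in replicate 2, with Pds5a at 40.8, 28.9 and 30.1, and Ctcf at 37.9, 24.8 and 34.3. Replicate 2 was the lowest list for these 5 promoters. Smc3 (27.8, 15.4 and 16.7) and Nipbl (19.98, 11.4 and 22.9) were intermediate.

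Rad21 (7.20, 5.10 and 9.74) and Smc1a (7.97, 2.92 and 9.74) had weak peaks, at the 36.4th and 33.3rd percentile of promoters with a CTCF peak in every list, whereas Stag1 was at the 94.4th and Pds5b at the 94.1st. Wapl had a peak in 2 of 3 lists (3.69 and 4.41), and in 1 of 3 humanized lists. With only the peaks whose -log10 q reached 5, or with 500 bp on either side, 8 of 10 genes had a peak in every list. The wild type summits lay 92 to 77 bases before the start of Pds5b, 155 to 116 before that of Stag2 and 116 to 90 before that of Rad21, and after the start by 112 to 144 bases at Stag1 and 452 to 540 at Ctcf. At Pds5a the summit was 1367 to 1409 bases downstream, in a peak that reaches into the window. Humanized lists held a peak in 3 of 3 at the same 9 promoters.

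**Figure D5:**
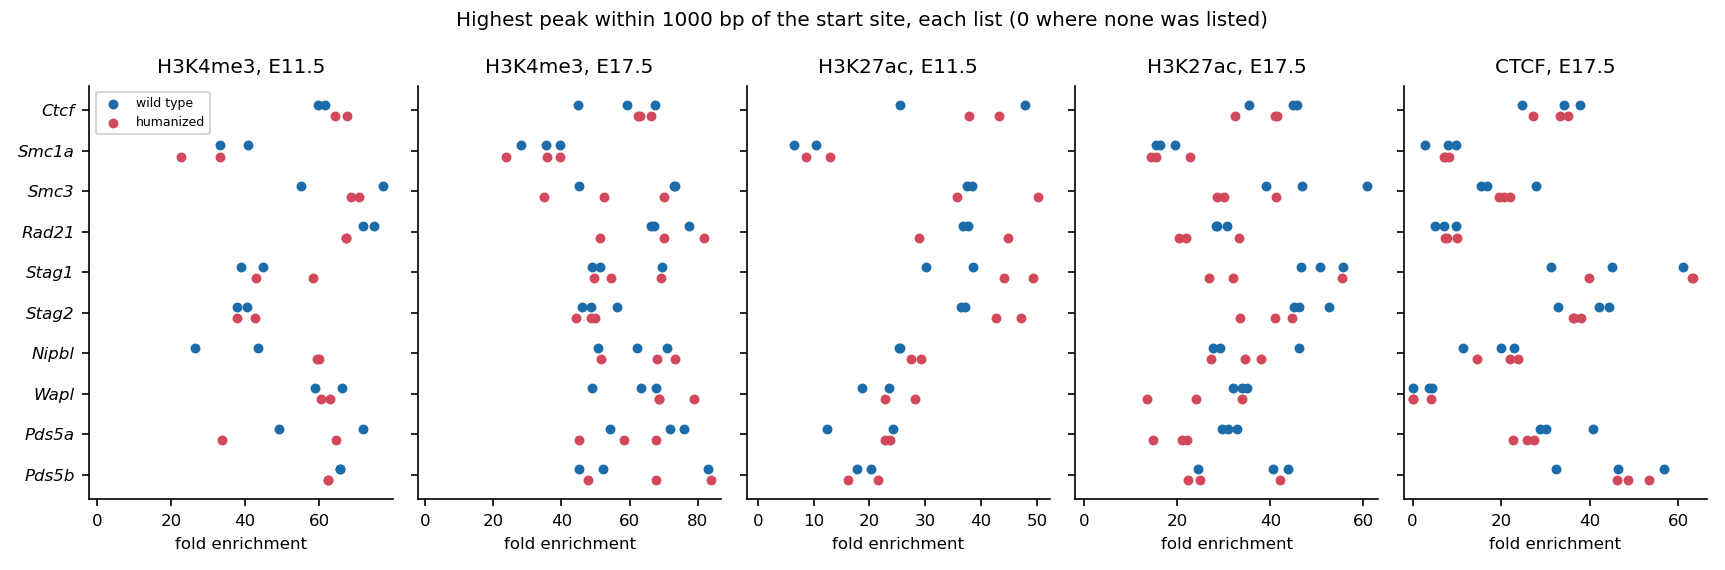
Fold enrichment (horizontal axes) of the highest peak within 1000 bp of the start of each gene, for each list of H3K4me3, H3K27ac and CTCF, blue for wild type and red for humanized, with 0 where no peak was listed. All points of H3K4me3 and H3K27ac are above 0, and for CTCF only Wapl has points at 0.

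Among other genes of the same machinery, most cohesin regulators and condensin genes fell between stages. Of 14 further cohesin regulators, 11 fell, 1 rose and 2 were not called in the wild type, with a median log2 fold change of -2.28 against -0.01 over all genes tested, and in the humanized mouse 12 fell and 1 rose (median -2.15). Of all genes tested, 26.7% fell in the wild type and 39.5% in the humanized mouse, and the counts of this and the following lists stand beside these shares. Among those that fell were Cdca5 (sororin, which guards cohesion after replication) at a log2 fold change of -4.46, Espl1 (separase, which cuts Rad21) at -3.85, Chtf18 at -3.66 and Haspin at -3.55. Esco1, an acetyltransferase of Smc3 outside replication, was the gene that rose, by 1.74, while Esco2, its counterpart in S phase, fell by 1.76. Of 8 condensin genes, whose complex packs mitotic chromosomes, 7 fell in each genotype (median -1.37 in the wild type), with Ncaph at -3.53 and Ncapd2 at -3.02.

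In the SMC5/6 complex, which serves DNA repair, Smc6 (1.31) and Smc5 (1.06) rose in the wild type, Nsmce4a (-1.76) and Nsmce2 (-0.42) fell, and 2 were not called. Of 11 other factors of chromatin looping, 6 fell and 1 rose in the wild type. Top2b, the topoisomerase found at CTCF sites, rose by 1.62, and Patz1 (-1.44), Zfp143 (-1.198) and Vezf1 (-0.99) fell. Yy1 fell by 0.74. Of 5 germline paralogs (Smc1b, Rad21l, Rec8, Stag3 and Ctcfl), 2 passed the filter in the wild type and both rose, Stag3 at 1.86 and Rec8 at 0.90.

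Cell type markers moved with the stage as well. All 12 proliferation genes fell in both genotypes (median -3.70 in the wild type), and their summed level was 2291 to 2720 TPM at E11.5, followed by 197 to 256 at E17.5, with Aurkb (-4.39) and Ccnb1 (-4.31) the most changed. Of 6 progenitor genes 6 fell, including Nes (-4.10), of 7 glial genes 7 rose, including Aqp4 (6.76), and of 6 neuronal genes 5 rose, including Syt1 (3.42). Ctcf, with -0.79, and Rad21, with -0.69, thus changed by less than any proliferation gene (-2.39 for Mki67, the smallest). The 7 diencephalon genes summed to 886 to 1598 TPM at E11.5, followed by 825 to 1019 at E17.5, and the 4 hindbrain Hox genes to at most 0.471. Of the 7 diencephalon genes, 4 fell and 1 rose in the wild type, with log2 fold changes from -6.31 to 1.02. The 4 telencephalon genes summed to 2.69 to 5.60 TPM at E11.5, followed by 47.1 to 68.8 at E17.5. Of these, 3 rose and 1 fell in the wild type. Of 4 microglial genes 0 were called in the wild type and 2 were called lower in the humanized mouse (25.9 to 66.6 TPM summed over all libraries of E17.5, 31.1 to 44.8 before). Of 4 endothelial genes 2 rose in the wild type, and 2 rose and 1 fell in the humanized mouse. Blood genes summed to 6553 to 19872 TPM at E11.5, followed by 768 to 2799 at E17.5, and genes of choroid plexus and meninges to 222 to 327 and 289 to 1277. The part of cell composition and of these other tissues in the changes of the 10 genes was not tested.

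The genes most like Ctcf over the 16 samples, by root mean square difference of log2 CPM after centring, were Ptp4a2 (0.0477), Yy1 (0.0680), Tbl1x (0.0696), Tex10 (0.0709) and Nom1 (0.0741), out of 14826 other protein-coding genes. Those most like Rad21 were Taf2 (0.0673), Polr2b (0.0794), Slc38a2 (0.0808), Mapk6 (0.0848) and Hmgxb4 (0.0860). Within the machinery, Smc3 and Nipbl were each other's nearest gene of all (0.109), and the gene nearest to Wapl was Pds5a (0.117). Ctcf was the 40th nearest gene to Rad21, and Rad21 the 59th nearest to Ctcf (0.128). These are orders of likeness among libraries that also differ in stage and in the recovery of low-GC genes.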

How the data were processed

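RNA was measured in 16 samples, and 36 ChIP-seq peak lists were used. The 24 input samples were not analysed here. The authors aligned poly(A)-selected RNA-seq reads to mm39 with STAR 2.7.9a and deposited raw counts per gene, unstranded and by strand. Entries without a gene held 48.1% to 58.4% of a library and were left out. They include unmapped reads, which were 36.3% to 44.9% of a library. Names and positions come from GENCODE release 39 for mouse, newer than that of the authors, and 56236 of 56923 gene IDs matched (98.8%). ChIP-seq reads were aligned by the authors with Bowtie2 2.4.2 (humanized mice to a version of mm39 that carries the human sequence), and MACS2 2.2.7.1 was run on single replicates. The deposited lists give the fold enrichment (a ratio over local background), the −log10 of p and q, and a whole-number score from the authors' caller, which was not used. The settings for H3K27me3 are not given in the sources used here. Depth behind a peak is unknown.

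Counts were filtered with filterByExpr, TMM-scaled and tested with edgeR 4.0.16 (limma 3.58.1, R 4.3.3), on the 8 samples of a comparison or on all 16 for the interaction, and p-values were adjusted by Benjamini-Hochberg over all genes tested, with calls under 0.05. Intervals are 95%. Ratios within pools were tested by exact permutation. Alternatives were DESeq2 1.42.0 and its size factors, no filter, counts by strand, 1 fit over the 16 samples, a block for the replicate number, each replicate left out, and, added later, GC offsets. All replicate pairs differed by more than sampling noise (24 pairs, 7.35 to 263 times it). On simulated counts, the count test called 14.9% of 2-fold changes in the wild type stage comparison and 61.2% in the humanized stage comparison. It called 73.1% of them for genotype at E11.5, 10.4% at E17.5 and 5.97% in the interaction. For the wild type stages the simulation changed 67 genes 1.5-fold, 67 genes 2-fold and 66 genes 4-fold out of 18583. In the data, 10356 genes were called there. The adjustment of p-values is stricter where few genes change, so these rates do not give the recovery of the stage comparisons in the data. A gene that was not called may still differ. Sequences come from GRCm39. All 10 genes are named, and of every other list up to 4 called genes with the largest wild type stage change, with others named after their values were seen. The 10 genes and the lists were chosen with earlier results of these data known. Python 3.11.15, pysam 0.24.0 and matplotlib 3.10.9 were used. Some items among the sequences and marker genes are not reported here.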

Additional observations from a re-analysis of the deposited data

Results flagged for a closer look

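In 3 of 56 groups of 4 pools checked (each gene and each ratio in each group), 1 pool stood further from the others than Dixon's limit allows, and chance gives about 1 in 20. Rad21 was at 452 CPM in E11.5 humanized replicate 4, above 349, 366 and 365 in the other pools. Stag1 was at 48.2 CPM in E17.5 wild type replicate 1, below 137, 131 and 134 in the others. This is the library with the lowest counts of low-GC genes, and without it the stage difference of Stag1 was called in the wild type (log2 fold change 0.78, edgeR adjusted p = 0.00738). The log2 ratio of Pds5a over Pds5b was -0.62 in E11.5 humanized replicate 4, against -0.74, -0.74 and -0.76 in the others.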

How the results depend on the processing

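Of the log2 fold changes of the 10 genes in 5 comparisons, 326 of 340 values under other settings and 463 of 480 with a replicate left out kept their direction and their side of the threshold. GC offsets, which give values relative to genes of like GC content, changed the most. They took the genes called at 2-fold or more to 0 in the wild type and 0 in the humanized mouse, and reversed Stag1 in the wild type (-0.036), Pds5a between humanized stages (-0.72), Nipbl between genotypes at E11.5 (0.039), and Smc3 between genotypes at E17.5 (-0.057) and in the interaction (-0.023). Without E11.5 wild type replicate 3, the wild type stage values of Smc1a (0.0098) and Wapl (0.10) turned sign, and without E17.5 wild type replicate 1 those of Wapl (0.12) and Pds5a (0.026). Over all libraries left out, they ran from -0.19 to 0.0098 (Smc1a), from -0.30 to 0.12 (Wapl) and from -0.39 to 0.026 (Pds5a). The wild type count at 2-fold or more was 1 to 4 when replicates were left out singly, 1 without E11.5 replicate 1, 2 or 4 or E17.5 replicate 2 or 4. For genotype, genes called over the whole table went from 0 to 1 (all 16 samples in 1 fit) and 2 (DESeq2) at E11.5 and to 1 (DESeq2) at E17.5. Genes with H3K27me3 in every E11.5 list went from 1 to 0 with a -log10 q of at least 5 and to 0 in humanized lists. The cause of these changes was not tested.

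The replicate number as a block gave 6 calls among the 10 genes in the wild type (9466 genes in all) and 9 in the humanized mouse (14454 genes), where Wapl (0.45, edgeR adjusted p = 0.0399) and Pds5a (0.46, edgeR adjusted p = 0.0158) were added. Correlations of same-numbered pools ran from -0.38 to 0.24 and from -0.12 to 0.21 between stages, and from 0.02 to 0.07 and 0.03 to 0.41 between genotypes, so the numbers are not taken to pair the samples. The pairing changed no other call. Pair ratios had the same differences when paired, with a smallest possible p of 0.125 (exact sign-flip test), and 4 pools against 3 cannot go below 0.0571. Libraries held at least 16414369 counts, and the lowest count of any of the 10 genes in a library was 358 (Stag2).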
